A study of Mus musculus with 17 samples.

Results

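The receptor tyrosine kinase gene Ret was measured together with the genes of the GDNF family that signal through it: the co-receptor genes Gfra1, Gfra2, Gfra3 and Gfra4 and the ligand genes Gdnf, Nrtn and Artn. These 8 genes were chosen by their symbols, as a named pathway, among 17306 probe sets with 1 probe set per gene. Of the 8 members, 2 (Ret and Gfra3) passed the filter on low values, which asked for a log2 value over 4 in at least 2 of the 17 arrays, and 6 (Gfra1, Gfra2, Gfra4, Gdnf, Nrtn and Artn) lay under it on every array. Ret differed between the genotypes of newborn ganglia, and Gfra3 differed between the ages.

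Ret is a signalling subunit that binds no ligand of the family by itself. A secreted dimer (glial cell line-derived neurotrophic factor, neurturin or artemin) binds a GFRα co-receptor held in the membrane by a lipid anchor, and that complex brings Ret molecules together, so that they phosphorylate each other on tyrosines that recruit adaptor proteins. In the sympathetic nervous system of mice, artemin acting through GFRα3 and Ret guides the migration and axon growth of young neurons along blood vessels, and neurturin and GFRα2 serve cholinergic sympathetic neurons.

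Expression had been profiled on Affymetrix arrays in sympathetic ganglia of C57BL/6 mice (the strain in the labels) from knock-in mice bred for the F1178L mutation of Alk, an activating point mutation of a receptor tyrosine kinase that is mutated in some neuroblastomas. Mice labelled Hom carried it on both alleles, mice labelled Het on 1 allele, and mice labelled Wt on none. At postnatal day 18 (P18) there were 2 Het and 3 Wt arrays, and at birth (P0) there were 4 Hom, 4 Het and 4 Wt arrays. The superior cervical and stellate ganglia were pooled, the mutation was in the germ line and therefore in every cell type of the ganglion, and the labels give no treatment. Whether the samples of a group are different animals is not labelled, so the p-values reflect the scatter among these samples, which may be technical.

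The noradrenergic enzyme genes that define the tissue had high values on all 17 arrays, from 10.97 to 13.33 for Th and from 12.14 to 13.59 for Dbh. Median log2 values ran from 4.41 to 4.68 over the arrays. Some arrays stood apart. P0 Wt replicates 1 and 4 held transcripts of sensory neurons, with Pou4f1 at 5.94 and 5.40 against 2.51 to 2.62 on the other 15 arrays. P0 Hom replicate 12, P0 Hom replicate 10 and P0 Wt replicate 3 correlated least with the other arrays of their groups (mean r of 0.951, 0.956 and 0.958). All results on Ret and Gfra3 were recomputed without these arrays. Alk itself lay at 9.17 to 9.63 in P0 Hom, 9.06 to 9.23 in P0 Het and 8.31 to 8.60 in P0 Wt ganglia, so that the lowest mutant value was above the highest Wt value, but its probe set does not tell the mutated from the wild-type transcript. Such a separation from Wt was shown by 9.44% of genes in Hom and 14.6% in Het. The Alk call in Het against Wt (0.68 ± 0.17, limma adjusted p = 0.045) was lost without any 1 of the 8 arrays compared (0.638 to 0.735).

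At birth, Ret was highest in homozygous ganglia, intermediate in heterozygous ganglia and lowest in wild-type ganglia. Its log2 values were 11.46, 10.31, 11.44 and 11.50 in P0 Hom, 10.32, 9.94, 9.99 and 10.10 in P0 Het and 9.26, 9.51, 9.02 and 9.14 in P0 Wt ganglia. Every Hom and every Het array was above every Wt array. Hom and Het overlapped only through Hom replicate 10, which lay just below the highest Het array. Of all genes tested, 9.44% did not overlap between Hom and Wt, 14.6% between Het and Wt and 16.1% between Hom and Het.

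The Ret mean was 11.18 ± 0.58 in P0 Hom, 10.09 ± 0.17 in P0 Het and 9.23 ± 0.21 in P0 Wt ganglia (SD, n = 4 each). Against Wt, Hom ganglia were higher by 1.94 ± 0.23 on the log2 scale (SE, 95% interval 1.45 to 2.43, 3.84-fold, limma adjusted p = 4.5e-05), a comparison in which 8.5% of 9973 genes were called at an adjusted p under 0.05, 5.16% as higher and 3.34% as lower. Against Het, Hom ganglia were higher by 1.09 ± 0.23 (0.60 to 1.58, 2.13-fold, limma adjusted p = 0.011, with 7.39% of genes called, 4.14% as higher and 3.25% as lower). Ret thus passed the test in both comparisons that involved the homozygotes. With the 2-tailed test of the study's methods, run on the same values in pairs of groups, the adjusted p was 0.0502 for Hom against Wt and 0.123 for Hom against Het, so neither passed there over all genes. In bulk ganglia, fewer cells of a type and less RNA per cell cannot be told apart, so these are levels per amount of ganglion RNA.

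The difference between Het and Wt ganglia at P0 was 0.85 ± 0.23 (0.36 to 1.34, 1.81-fold) and did not pass over all genes (limma adjusted p = 0.058, unadjusted p = 0.0021, with 3.11% of genes called, 1.8% as higher and 1.3% as lower). The 4 Het arrays nevertheless all lay above the 4 Wt arrays. Fitted on the P0 Het and P0 Wt arrays alone, the same difference had an SE of 0.124 and an adjusted p of 0.0188, and with each array centred on its median it was 0.897 with an adjusted p of 0.0476. Over all alternatives the adjusted p ran between 0.0188 and 0.138.

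With both mutant genotypes in 1 test, Ret differed among Hom, Het and Wt at P0 (moderated F test in limma, adjusted p = 0.00016, with 10.7% of genes called). The Het mean lay -0.12 ± 0.20 from the midpoint of the Hom and Wt means (95% interval -0.54 to 0.31, adjusted p = 0.77, with 1.89% of genes called). The interval allows a shift of the Het level to either side of the midpoint. On the linear scale the same group means correspond to folds of 1.81 for Het and 3.84 for Hom over Wt.

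**Figure D1:**
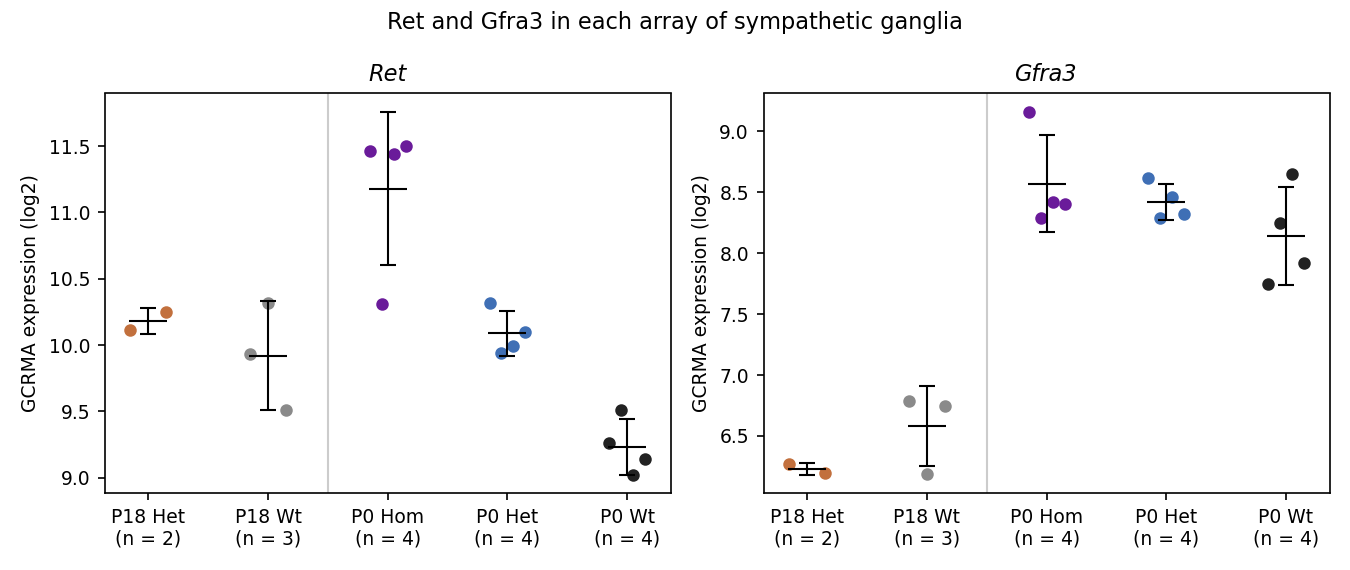
Ret (left) and Gfra3 (right) as deposited log2 values, 1 point per array, with the group mean and SD as bars, for P18 Het, P18 Wt, P0 Hom, P0 Het and P0 Wt ganglia. At P0 all Hom and Het arrays lie above all Wt arrays for Ret, with Hom replicate 10 (10.31) apart from the other Hom arrays (11.44 to 11.50), while for Gfra3 the 3 genotypes overlap and the P18 arrays lie lower.

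Hom replicate 10 stood apart from its group. Its Ret value of 10.31 was next to the Het arrays, while the other 3 Hom arrays lay within 11.44 to 11.50. Without it, Hom exceeded Wt by 2.232 and Het by 1.379, and Het lay at -0.263 from the midpoint. The call between Hom and Wt and that between Hom and Het held without this array and without each of the other arrays in turn. It was not next to Het for every gene: by 2 genes chosen after their values were seen, the homeobox factor gene Hmx1 was 9.31 in Hom replicate 10 and 8.86 to 8.98 in the other Hom arrays, against 10.51 to 10.80 in Het, and the phosphatase gene Dusp6 was 10.77 there and 10.33 to 10.64 in the other Hom arrays, against 9.62 to 9.85 in Het. The same array had the highest median of the 3 fat genes of all arrays (3.65, relative to each gene's mean over the 12 P0 arrays), with Ucp1 of brown fat at 11.12 against 2.56 to 2.81 in the other Hom arrays. Ucp1 was also high in P0 Wt replicates 3 and 4 (10.47 and 8.96). The part of fat in its Ret value was not tested.

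Marker lists of the neurons and of other cell types are given beside the Ret differences at P0. Medians of these marker lists are given per array, relative to each gene's mean over the 12 P0 arrays. The median of 11 noradrenergic genes lay between -0.64 and -0.01 in P0 Hom arrays. It lay between 0.21 and 0.32 in P0 Het and between 0.03 and 0.31 in P0 Wt arrays. Of these 11 genes, 1 rose in Hom against Wt, Chga (0.70 ± 0.14, adjusted p = 0.0038), and 5 fell, among them Th (-0.82 ± 0.12, adjusted p = 0.00044) and Hmx1 (-1.88 ± 0.10, adjusted p = 1.7e-08), while 2 rose and 1 fell in Het against Wt. The shares called over all genes were 5.16% higher and 3.34% lower in Hom against Wt, and 1.8% higher and 1.3% lower in Het against Wt. Dbh differed by -0.02 ± 0.09 in Hom against Wt (adjusted p = 0.96). The median of 9 glial genes lay between -0.38 and -0.13 in Hom, -0.72 and -0.19 in Het and -0.42 and 1.29 in Wt. The median of 5 sensory neuron genes lay between -0.59 and -0.52 in Hom, -0.98 and -0.64 in Het and -0.96 and 3.86 in Wt, with the high values in Wt replicates 1 and 4. The part of these cells in the Ret differences was not tested. Sensory neurons are known to express Ret, and Ret was 9.26 and 9.14 in those Wt arrays against 9.51 and 9.02 in the other Wt arrays. With both left out, Ret differed by 1.91 between Hom and Wt (adjusted p = 0.00113) and by 0.82 between Het and Wt (adjusted p = 0.116).

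Of 8 chromaffin cell genes, 4 of which (Chga, Chgb, Dbh and Th) are also on the noradrenergic list, 3 rose and 1 fell in Hom against Wt, and 3 rose and 0 fell in Het against Wt. Beside these and the counts that follow, 5.16% of all genes were called higher and 3.34% lower in Hom, and 1.8% higher and 1.3% lower in Het. The risers were Chga, the neuropeptide gene Cartpt (3.28 ± 0.19 for Hom, 3.33 ± 0.19 for Het) and the vesicular transporter gene Slc18a1 (2.02 ± 0.38, 1.48 ± 0.38). The gene that fell in Hom was Th (-0.82). The rest of the list was not called in either genotype against Wt. These genes were Pnmt (1.33 for Hom, 0.15 for Het), Penk (-0.36, -0.99), Chgb (-0.31, 0.46) and Dbh (-0.02, 0.07). The list's median was 0.09 to 0.22 in P0 Hom, 0.03 to 0.36 in P0 Het and -0.33 to 0.03 in P0 Wt arrays. The median of 9 macrophage and leukocyte genes was -0.32 to -0.16 in P0 Hom and -0.51 to -0.03 in P0 Het arrays. In P0 Wt arrays it was -0.02 to 1.33, with 1.33 in replicate 3, an array that stood apart. Hom lay below all Wt arrays, while the highest Het and lowest Wt medians (-0.03 and -0.02) hardly differed. Of these 9 genes, Ptprc fell in Hom against Wt, and Lyve1 and Mrc1 fell in Het against Wt. The pericyte gene Rgs5 fell in Hom (-1.09 ± 0.19) and in Het (-0.72 ± 0.19) against Wt, as 1 of 9 mural cell genes. The median of 10 fibroblast and matrix genes was -0.61 to 0.42 in P0 Hom, -0.44 to -0.14 in P0 Het and -0.11 to 0.88 in P0 Wt arrays. Those of the endothelial and muscle lists overlapped among the 3 genotypes. For the fat list the median was -3.0 to 3.65 in P0 Hom, -2.96 to 0.21 in P0 Het and 0.37 to 2.17 in P0 Wt arrays. Every Het array thus lay below every Wt array for fat, while Hom overlapped with both. Of these 4 lists, Kdr was called higher in Hom and Lox lower in Het against Wt. They were 1 of 7 endothelial and 1 of 10 fibroblast and matrix genes. Among endothelial genes not called in Hom, Cldn5 (-1.24), Vwf (-1.46) and Tek (-0.65) were lower, and Emcn (0.52), Esam (0.39) and Pecam1 (0.02) were not. The part of these cells in the Ret differences was not tested either.

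At day 18 the genotypes were not told apart by Ret. Its log2 values were 10.11 and 10.25 in P18 Het ganglia and 9.93, 10.32 and 9.51 in P18 Wt ganglia, and both Het values fell within the Wt range. The difference was 0.26 ± 0.30 (95% interval -0.37 to 0.89, limma adjusted p = 0.98), a comparison in which 0.261% of genes were called and 35.5% did not overlap. Alk differed there by 1.22 ± 0.23 (adjusted p = 0.034), but this call was lost without P18 Wt replicate 1, P18 Het replicate 4 or P18 Het replicate 5, with differences of 1.151 to 1.296. The Het effect on Ret at P18 minus that at P0 was -0.59 ± 0.38, and this change in the effect did not pass (-1.39 to 0.21, adjusted p = 0.62, with 0.14% of genes called), so a difference between the ages was not shown.

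Between the ages, Ret was higher in wild-type ganglia at P18. The P18 Wt values of 9.51 to 10.32 met the P0 Wt values of 9.02 to 9.51 at 9.51, and 57.7% of all genes did not overlap between these groups. The difference was 0.68 ± 0.25 (0.15 to 1.21, 1.61-fold, limma adjusted p = 0.029), where 54.9% of genes were called in either direction and 27.9% as higher, so passing this test was common. The call was lost without P0 Wt replicate 3 (0.612), P0 Wt replicate 4 (0.652), P18 Wt replicate 1 (0.676) or P18 Wt replicate 2 (0.484), after quantile normalization (0.584, adjusted p = 0.0759), and when P0 Wt replicates 1 and 4 were left out together (0.65, adjusted p = 0.104). In heterozygous ganglia, Ret was 10.18 ± 0.10 at P18 (SD, n = 2) and 10.09 ± 0.17 at P0 (SD, n = 4), a difference of 0.09 ± 0.28 (-0.51 to 0.69, adjusted p = 0.82, with 47.8% of genes called, 22.3% as higher and 25.5% as lower). Age and batch cannot be told apart, because no scan date or batch is labelled, and at P0 the sample numbers run together within each genotype.

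Over the 5 groups, the order of the Ret means was P0 Hom (11.18), P18 Het (10.18), P0 Het (10.09), P18 Wt (9.92) and P0 Wt (9.23). The 3 groups in the middle of this order overlapped each other. P18 Het did not differ from P0 Het beyond the error (0.09 ± 0.28), and the neighbours P0 Hom and P18 Het, and P0 Het and P18 Wt, were not tested.

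Gfra3, which encodes the co-receptor that binds artemin, did not separate the genotypes at birth. It was 9.16, 8.29, 8.42 and 8.40 in P0 Hom, 8.62, 8.29, 8.46 and 8.32 in P0 Het and 7.75, 8.25, 8.65 and 7.92 in P0 Wt ganglia, and the 3 groups overlapped. Hom differed from Wt by 0.42 ± 0.21 (95% interval -0.03 to 0.87, limma adjusted p = 0.26), Het from Wt by 0.28 ± 0.21 (-0.17 to 0.73, adjusted p = 0.52) and Hom from Het by 0.14 ± 0.21 (-0.30 to 0.59, adjusted p = 0.73). The F test over the 3 genotypes gave an adjusted p of 0.35. The intervals do not exclude a rise of Gfra3 in the mutants, but for Hom against Wt the upper bound of 0.87 was below the lower bound of 1.45 for Ret.

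The Gfra3 differences at P0 moved with single arrays. Without Hom replicate 9, the highest array, Hom differed from Wt by 0.225 and from Het by -0.054. Without Wt replicates 1 and 4, which held the sensory neuron transcripts and the lowest Gfra3 values (7.75 and 7.92), Hom differed from Wt by 0.116 and Het from Wt by -0.028. Wt replicate 3, with the highest Gfra3 value of its group (8.65), also had the highest median of the glial genes (1.29). Without it Hom differed from Wt by 0.592 and Het from Wt by 0.448, and neither passed. The part of glia or sensory neurons in the Gfra3 values was not tested.

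With age, Gfra3 fell in both genotypes. In Het ganglia it was 6.27 and 6.20 at P18, against 8.62, 8.29, 8.46 and 8.32 at P0, and in Wt ganglia it was 6.79, 6.19 and 6.75 at P18, against 7.75, 8.25, 8.65 and 7.92 at P0. Every P18 array lay below every P0 array, a separation that 72.6% of genes showed in one or the other direction in Het and 57.7% in Wt. The difference was -2.19 ± 0.26 in Het (95% interval -2.74 to -1.64, 0.219-fold, limma adjusted p = 4.7e-06) and -1.57 ± 0.23 in Wt (-2.05 to -1.08, 0.338-fold, adjusted p = 3e-05). As lower genes, 25.5% were called in Het and 27.0% in Wt. Both calls held without each array in turn, with differences of -2.233 to -2.124 in Het and -1.699 to -1.374 in Wt.

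The change of Gfra3 with age in Het minus that in Wt was -0.62 ± 0.34, and this did not pass (-1.36 to 0.11, adjusted p = 0.57). At P18 itself, Het and Wt differed by -0.34 ± 0.27 (-0.92 to 0.23, adjusted p = 0.91), and the Wt replicate 2 value of 6.19 was as low as the Het values. The order of the Gfra3 means was P0 Hom (8.57), P0 Het (8.42), P0 Wt (8.14), P18 Wt (6.58) and P18 Het (6.23), in which the 3 P0 neighbours overlapped and so did the P18 neighbours.

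Markers of several other cell types were also lower at P18. Of 10 fibroblast and matrix genes, 7 were lower at P18 than at P0 in Het and in Wt, while Lum was higher in both (1.03 ± 0.31 in Het and 0.89 ± 0.27 in Wt) and Dcn was higher in Het (1.86 ± 0.45). Over all genes, 25.5% were called lower in Het and 27.0% in Wt. Of 9 mural cell genes 3 were lower in Het and 6 in Wt. Of 7 endothelial genes, 4 were lower in Het and 6 in Wt. The medians per array were again relative to each gene's mean over the 12 P0 arrays. The median of the fibroblast genes was -2.30 to -1.93 in P18 Het and -1.99 to -1.89 in P18 Wt arrays. It was -0.44 to -0.14 in P0 Het and -0.11 to 0.88 in P0 Wt arrays. The median of the 9 glial genes went the other way, with 0.75 to 0.83 in P18 Het and 0.51 to 0.82 in P18 Wt, against -0.72 to -0.19 in P0 Het and -0.42 to 1.29 in P0 Wt. Their part in the fall of Gfra3 was not tested.

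**Figure D2:**
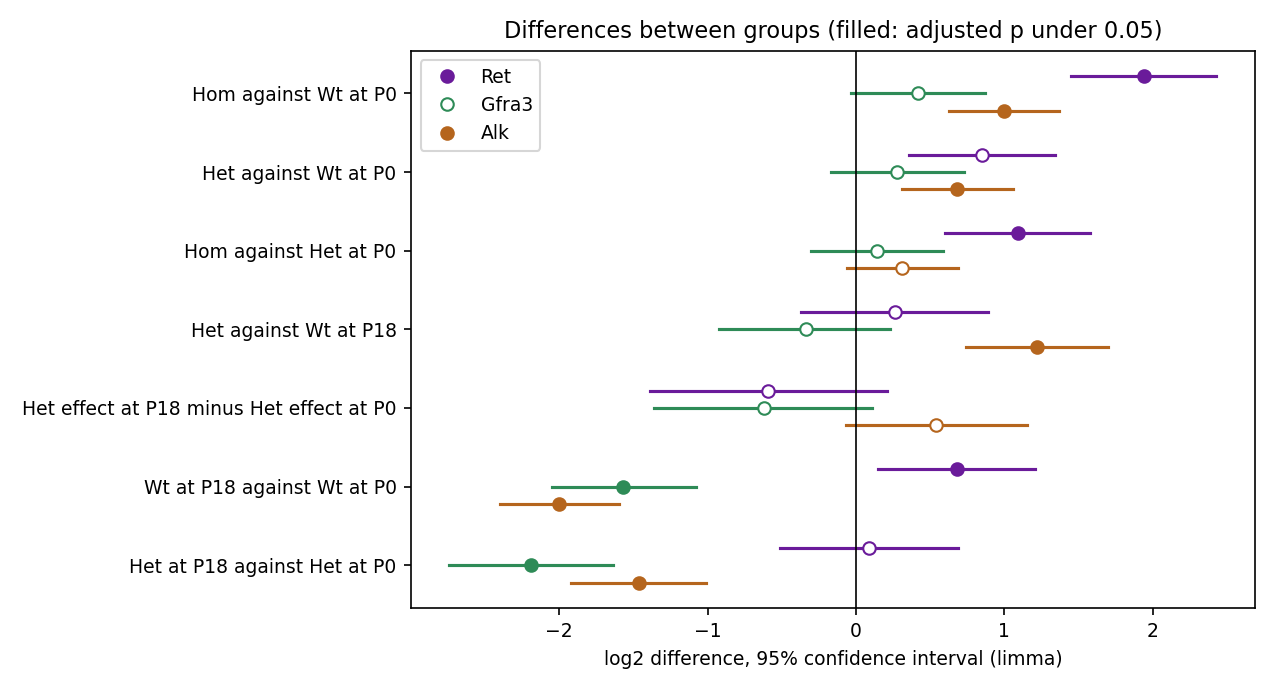
Log2 differences between groups with 95% confidence intervals from limma for Ret, Gfra3 and Alk, in 7 comparisons, filled where the adjusted p over all genes was under 0.05. The Ret differences between genotypes are largest for Hom against Wt at P0 (1.94), and the Gfra3 differences that passed are the falls with age (-2.19 in Het and -1.57 in Wt).

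The other 6 members gave no level above the filter in any group. Gdnf, the founding ligand, lay between 2.08 and 2.12 on all 17 arrays, Nrtn, the ligand preferred by GFRα2, between 1.70 and 1.73, and Artn, the ligand of GFRα3, between 2.05 and 2.09. Gfra1, the co-receptor for GDNF, lay between 2.06 and 2.12. These 4 members had a range under 0.1 over the whole series, as did 3132 of all 17306 probe sets, and 42.4% of all probe sets failed the filter. Such values are those that GCRMA gives to a probe set near background, so they set no order among groups and do not show that the transcript was absent.

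Gfra2 and Gfra4, the co-receptors that bind neurturin and persephin, were also under 4 on every array but varied more. Gfra2 was 2.74, 2.54, 3.00 and 3.81 in P0 Hom, 2.53 to 2.66 in P0 Het and 2.51 to 2.61 in P0 Wt arrays, so its highest value was that of Hom replicate 12, an array that stood apart. Without the filter, Hom and Wt differed by 0.473 ± 0.201 (limma adjusted p = 0.29). Gfra4 was 2.85 and 2.84 in P18 Het and 3.16, 3.00 and 2.86 in P18 Wt arrays, against 2.32 to 2.56 in P0 Het and 2.28 to 2.62 in P0 Wt arrays. Without the filter its difference between the ages was 0.396 ± 0.12 in Het (adjusted p = 0.0224) and 0.57 ± 0.105 in Wt (adjusted p = 0.000706). These values lie near background, and no direction is drawn from them.

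**Figure D3:**
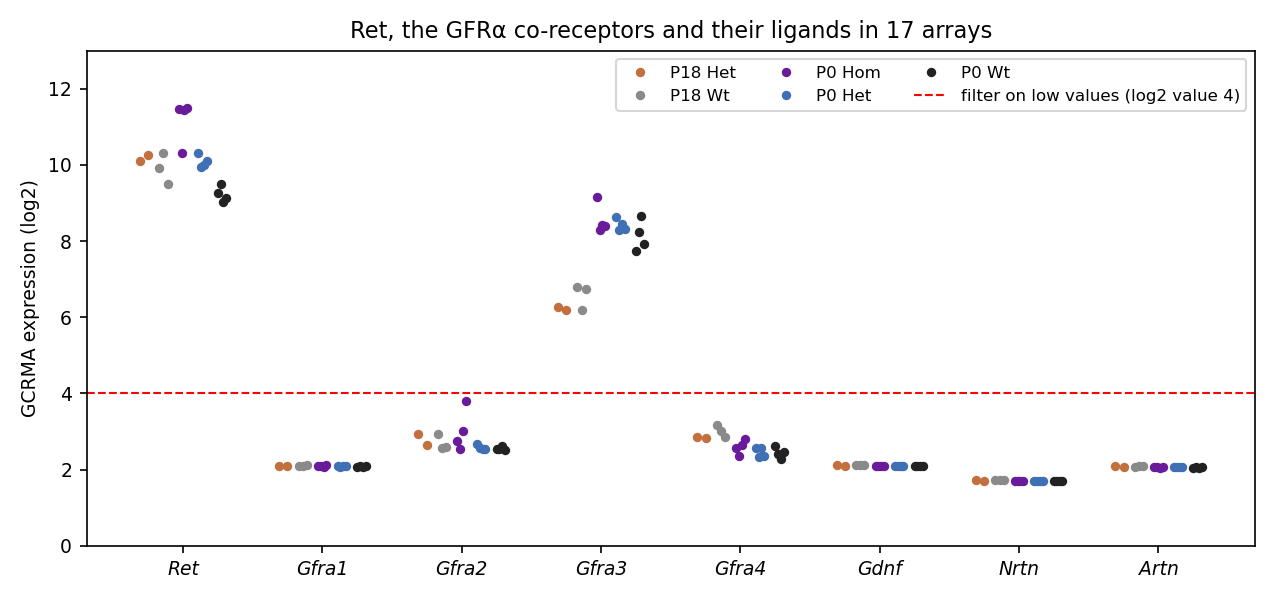
Deposited log2 values of the 8 members on all 17 arrays, coloured by group (P18 Het, P18 Wt, P0 Hom, P0 Het and P0 Wt from left to right within each gene), with the filter at a log2 value of 4 as a dashed line. Ret and Gfra3 lie above the line on every array and the other 6 members below it; heights of different probe sets are not comparable.

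Genes that act beside Ret were followed in lists of other receptors, adaptors, regulators and targets. Of 4 measured genes for other receptors and ligand sorting, 1 was called at P0. Of all genes, 8.5% were called in Hom against Wt, 3.11% in Het against Wt and 7.39% in Hom against Het. Sorl1, a sorting receptor known to bind GDNF and GFRα1 and carry them inside the cell, was 9.47, 8.11, 9.36 and 9.24 in P0 Hom, 7.50, 7.36, 7.11 and 7.16 in P0 Het and 6.30, 6.06, 6.16 and 5.99 in P0 Wt ganglia. The 3 genotypes did not overlap. Over all genes, 9.44% did not overlap between Hom and Wt, 14.6% between Het and Wt and 16.1% between Hom and Het. Sorl1 rose by 2.92 ± 0.23 in Hom against Wt (limma adjusted p = 1.1e-06), by 1.16 ± 0.23 in Het against Wt (adjusted p = 0.013) and by 1.76 ± 0.23 in Hom against Het (adjusted p = 0.00052). Like Ret, it was lowest among the Hom arrays in Hom replicate 10. The list had a median difference of 0.17 in Hom and 0.08 in Het against Wt, beside 0.01 and 0.03 over all genes.

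Sorl1 was 8.13 and 8.32 in P18 Het and 7.64, 7.73 and 7.18 in P18 Wt ganglia. It was higher at P18 than at P0 in Het (0.95 ± 0.29, adjusted p = 0.012) and in Wt (1.39 ± 0.25, adjusted p = 0.00024), and the Het call was lost without P18 Het replicate 5 (0.85). Ncam1, an adhesion molecule that serves as a Ret-independent GDNF receptor together with GFRα1, was lower at P18, with a difference of -0.54 ± 0.12 in Het (adjusted p = 0.0017) and of -0.73 ± 0.11 in Wt (adjusted p = 3.1e-05). Sdc3, a syndecan that binds GDNF family ligands, was lower as well (-0.66 ± 0.15 in Het and -0.65 ± 0.14 in Wt). Thus 3 of the 4 genes of this list were called in both genotypes, each in the same direction, where 47.8% of all genes were called in Het and 54.9% in Wt. Lrig1, an inhibitor of Ret signalling, was called lower in Wt alone (-0.79 ± 0.25), a call that was lost without P18 Wt replicate 2 or 3 (-0.729 to -0.721).

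Of 23 measured adaptor and kinase genes, 4 rose and 0 fell in Hom against Wt at P0 (the list's median was 0.16, beside 0.01 over all genes, and 5.16% of all genes were called as higher). Grb14, which encodes an adaptor of receptor tyrosine kinases, was 9.14, 8.39, 9.22 and 8.75 in P0 Hom, 7.68 to 7.88 in P0 Het and 6.93 to 7.76 in P0 Wt ganglia, with a difference of 1.47 ± 0.18 in Hom against Wt (adjusted p = 5.4e-05). Irs2, a docking protein for phosphatidylinositol 3-kinase, was 8.18, 7.49, 8.33 and 7.94 in P0 Hom, 6.66 to 7.01 in P0 Het and 6.20 to 6.67 in P0 Wt ganglia, with a difference of 1.60 ± 0.21 (adjusted p = 0.0001). Over all genes, 9.44% did not overlap between Hom and Wt and 16.1% between Hom and Het. For Grb14 and Irs2 every Hom array lay above every Het and Wt array. Both were also higher in Hom than in Het, by 1.10 ± 0.18 for Grb14 (adjusted p = 0.0018) and by 1.14 ± 0.21 for Irs2 (adjusted p = 0.0044).

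The other calls among the adaptors were less firm. Grb10, a relative of Grb14, was higher by 0.72 ± 0.14 in Hom against Wt (adjusted p = 0.0039) and by 0.63 ± 0.14 in Het against Wt (adjusted p = 0.024), the Het call being lost without P0 Wt replicate 2, P0 Het replicate 6 or P0 Het replicate 7 (0.567 to 0.61). On the compared arrays alone neither Grb10 call passed (adjusted p = 0.0587 in Hom and 0.0915 in Het). Pik3r1, a regulatory subunit of phosphatidylinositol 3-kinase, was higher by 0.69 ± 0.20 in Hom against Wt (adjusted p = 0.04), a call lost without P0 Wt replicate 2 or 3 or P0 Hom replicate 9, 10 or 11 (0.566 to 0.698). Stat3 was higher in Hom than in Het by 0.64 ± 0.15 (adjusted p = 0.016), but without P0 Het replicate 6 it was 0.51 and did not pass. At P18, 1 of the 23 differed between Het and Wt, the docking protein gene Gab1 (0.87 ± 0.16, adjusted p = 0.033), and it no longer passed without any 1 of the 5 P18 arrays (0.836 to 0.931).

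With age the adaptors moved in both directions. In Het and in Wt alike, 3 of the 23 were higher and 5 lower at P18, with a list median of -0.04 in Het and -0.15 in Wt, beside -0.04 and 0.01 over all genes. The insulin receptor substrate gene Irs1 was lower (-1.54 ± 0.23 in Het and -2.07 ± 0.20 in Wt), as was Grb10 (-1.88 ± 0.17 in Het and -1.60 ± 0.15 in Wt), while Grb14 was higher by 1.04 ± 0.22 in Het and by 1.20 ± 0.19 in Wt. Over all genes, 47.8% were called in Het and 54.9% in Wt, beside 8 of 23 adaptor genes in each, and the shares were not tested against each other.

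Among 7 ubiquitin ligase, endocytosis and phosphatase genes, 1 was called at P0, a share near that of all genes (8.5% in Hom against Wt and 7.39% in Hom against Het), and the list's median was 0.24 in Hom and 0.29 in Het against Wt, beside 0.01 and 0.03 over all genes. Sh3kbp1, which encodes the Cbl-binding adaptor CIN85 that takes part in the endocytosis of receptor tyrosine kinases, was 7.05, 6.57, 7.16 and 6.56 in P0 Hom, 5.74 to 6.10 in P0 Het and 5.53 to 5.71 in P0 Wt ganglia. It was higher by 1.24 ± 0.14 in Hom against Wt (adjusted p = 2.3e-05). Against Het, Hom was higher by 0.95 ± 0.14 (adjusted p = 0.00084). Over all genes, 9.44% did not overlap between Hom and Wt, 14.6% between Het and Wt and 16.1% between Hom and Het. For Sh3kbp1 there was no overlap among the 3 genotypes. Its relative Cd2ap was higher at P18 than at P0, by 1.10 ± 0.18 in Het and by 0.76 ± 0.16 in Wt, and the receptor phosphatase gene Ptprf was lower (-0.61 ± 0.17 in Het and -0.60 ± 0.15 in Wt). The Ptprf call in Het was lost without P18 Het replicate 4 or 5 (-0.614 to -0.598).

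Of 9 genes of the ERK and ETS response, which receptor tyrosine kinases including Ret induce, 2 rose and 0 fell in Hom against Wt at P0, where 5.16% of all genes were called higher, and 0 of 9 were called in Het against Wt, where 3.11% were called. The list's median was 0.73 in Hom and 0.00 in Het against Wt, beside 0.01 and 0.03 over all genes. Dusp6, an ERK phosphatase, was 10.56, 10.77, 10.64 and 10.33 in P0 Hom, 9.62 to 9.85 in P0 Het and 9.54 to 10.39 in P0 Wt ganglia, with differences of 0.73 ± 0.15 in Hom against Wt (adjusted p = 0.0048) and of 0.86 ± 0.15 in Hom against Het (adjusted p = 0.003). Between Hom and Het, 16.1% of all genes did not overlap. For Dusp6 the Hom arrays lay above all Het arrays and overlapped with Wt only through Wt replicate 3. The Hom call against Wt was lost when Wt replicates 1 and 4 were left out together (0.539, adjusted p = 0.0683), on the compared arrays alone (adjusted p = 0.079) and with the methods' t-test (adjusted p = 0.207). Etv5, an ETS factor that acts downstream of GDNF and Ret in kidney and testis, was higher by 0.93 ± 0.23 in Hom against Wt (adjusted p = 0.02), a call lost without P0 Hom replicate 12 (0.794), without P0 Hom replicate 12 and P0 Wt replicate 3 together (0.556) and on the compared arrays alone (adjusted p = 0.175).

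Of the response genes, 2 more were called in Hom against Het and not against Wt, with Vgf at 0.68 ± 0.18 (adjusted p = 0.032) and the feedback inhibitor gene Spry2 at 0.76 ± 0.22 (adjusted p = 0.048). For Vgf the call was lost without P0 Het replicate 6, 7 or 8 or P0 Hom replicate 9 or 11 (0.58 to 0.704), and for Spry2 without any P0 Het array or P0 Hom replicate 9, 11 or 12 (0.608 to 0.795). The difference of Vgf was 0.18 ± 0.18 for Hom against Wt (adjusted p = 0.64) and -0.51 ± 0.18 for Het against Wt (adjusted p = 0.14). The values of Vgf therefore did not follow the order of the Ret means, which was Hom, Het and Wt.

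Transcription factors listed as possible regulators of Ret did not rise with it in homozygotes. Of 10 measured, 0 rose and 2 fell in Hom against Wt, and 1 rose and 1 fell in Het against Wt, with list medians of -0.08 and -0.18, beside 0.01 and 0.03 over all genes. Called higher were 5.16% of all genes in Hom and 1.8% in Het, and called lower 3.34% and 1.3%. Gata2, a zinc finger factor of sympathetic neurons, was 8.58, 9.25, 8.85 and 9.08 in P0 Hom, 9.61 to 9.75 in P0 Het and 9.73 to 9.86 in P0 Wt ganglia, with differences of -0.86 ± 0.12 in Hom against Wt (adjusted p = 0.00018) and of -0.74 ± 0.12 in Hom against Het (adjusted p = 0.0016). The 4 Hom arrays were below all Het and Wt arrays. Over all genes, 9.44% did not overlap between Hom and Wt and 16.1% between Hom and Het. Tbx3, a T-box repressor, was 6.90 to 7.81 in P0 Hom, 7.15 to 7.54 in P0 Het and 8.15 to 9.16 in P0 Wt ganglia, and differed from Wt by -1.37 ± 0.21 for Hom (adjusted p = 0.00054) and -1.27 ± 0.21 for Het (adjusted p = 0.0041).

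The calls for 2 more of these factors lay near the threshold. Gata3 was higher by 0.49 ± 0.11 in Het against Wt (adjusted p = 0.026), a call lost without each P0 Het array and without P0 Wt replicate 2, 3 or 4 (0.455 to 0.522). Phox2a, a homeobox factor that specifies noradrenergic neurons, was lower in Hom than in Het (-0.29 ± 0.08, adjusted p = 0.035), a call lost without P0 Het replicate 5, 7 or 8 or P0 Hom replicate 9 or 11 (-0.303 to -0.243). With age, 1 of the 10 was higher and 3 lower in Het, and 2 were higher and 6 lower in Wt. Among all genes, 22.3% were called higher and 25.5% lower in Het, and 27.9% higher and 27.0% lower in Wt. Gata3 was lower (-2.10 ± 0.14 in Het and -1.80 ± 0.12 in Wt), the LIM homeobox gene Isl1 was lower (-0.90 ± 0.08 in Het and -0.63 ± 0.07 in Wt), and the retinoic acid receptor gene Rarb was higher by 0.93 ± 0.34 in Het and by 1.10 ± 0.30 in Wt. The Rarb call in Het was lost without P0 Het replicate 6 or P18 Het replicate 5 (0.451 to 0.77). Hoxb5, a homeobox factor known to bind the Ret promoter, was 5.80 and 8.44 in P0 Wt replicates 2 and 4, 3.03 in P0 Wt replicate 3 and 2.29 to 2.58 on the other 14 arrays, so its call with age in Wt (-2.48 ± 0.96, adjusted p = 0.039) came from a few P0 Wt arrays.

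**Figure D4:**
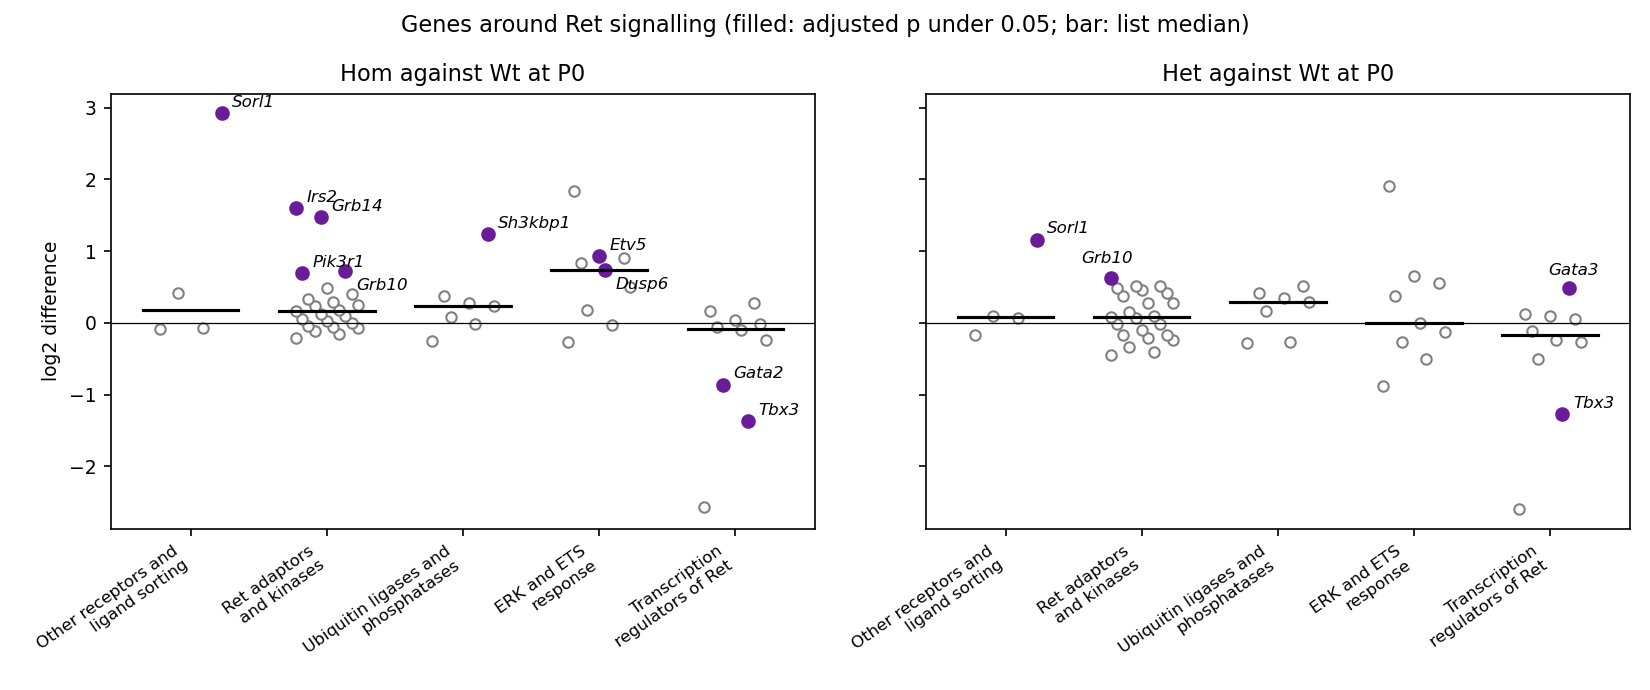
Log2 differences at P0 of Hom against Wt (left) and Het against Wt (right) for the measured genes of 5 lists around Ret signalling, 1 point per gene, filled and named where the limma adjusted p was under 0.05, with the list median as a bar. Sorl1 has the largest difference in Hom (2.92), and in Het the genes that passed are Sorl1 (1.16), Grb10 (0.63), Gata3 (0.49) and Tbx3 (-1.27).

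The cholinergic genes are given because Ret is known to be needed for cholinergic sympathetic neurons of mice. Of 4 measured, 3 rose and 0 fell in Hom against Wt at P0 and 1 rose in Het against Wt, where 5.16% and 1.8% of all genes were called higher. The list medians were 1.88 and 1.62, beside 0.01 and 0.03 over all genes. The somatostatin gene Sst was 10.02, 5.92, 9.42 and 7.97 in P0 Hom, 7.57, 7.27, 6.14 and 6.88 in P0 Het and 2.28, 3.08, 5.21 and 1.89 in P0 Wt ganglia, with differences of 5.22 ± 0.78 in Hom (adjusted p = 0.0004) and of 3.85 ± 0.78 in Het (adjusted p = 0.014) against Wt. The Het call was lost when P0 Wt replicates 1 and 4 were left out together (2.82, adjusted p = 0.0755), and both calls were lost with the methods' t-test (adjusted p = 0.124 in Hom and 0.107 in Het). The membrane anchor gene of acetylcholinesterase, Prima1, was higher by 1.92 ± 0.42 in Hom against Wt (adjusted p = 0.0078), a call lost on the compared arrays alone (adjusted p = 0.0888) and with the methods' t-test (adjusted p = 0.242). Ache, the enzyme itself, was higher by 0.71 ± 0.21 (adjusted p = 0.047), a call lost without P0 Wt replicate 1, 2 or 3 or P0 Hom replicate 9, 11 or 12 (0.572 to 0.737). For Sst, as for Ret, Hom replicate 10 was the lowest Hom array. Vip, also measured, differed from Wt by 1.84 ± 0.71 in Hom (limma adjusted p = 0.14) and by 1.91 ± 0.71 in Het (adjusted p = 0.17), and neither passed. Of this list, Slc18a3, Slc5a7, Tlx3 and Ntrk3 were under the filter, and Chat and Calca were not found on the array. The genes for acetylcholine synthesis and transport (Chat, Slc18a3 and Slc5a7) therefore gave no result.

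The genes whose values were most like those of Ret were found as those with the highest Pearson correlation over the 12 P0 arrays. These points share genotype groups, hybridization and normalization, and the correlations are descriptions. The highest were Mal2, a membrane protein of vesicle transport (r = 0.989), Tmtc1 (0.985), the glypican gene Gpc1 (0.982), Sorl1 (0.981), the sulfotransferase gene Chst15 (0.978), the synaptic adhesion gene Slitrk1 (0.976), Chn2, a regulator of Rac (0.969), and Tcerg1l (0.965). After each genotype's mean was taken off, the correlations were between 0.807 and 0.929. Hom replicate 10 was the lowest Hom array for each of these 8 genes and for Ret. Because the genes were chosen on the same arrays, this and the correlations within genotype largely follow from the way they were found.

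Mal2 was 9.84, 8.37, 9.80 and 10.04 in P0 Hom, 8.23, 8.19, 7.53 and 7.83 in P0 Het and 6.65, 6.91, 6.52 and 6.55 in P0 Wt ganglia. It was higher in Hom than in Wt by 2.86 ± 0.29 (adjusted p = 1.1e-05) and higher in Het than in Wt by 1.28 ± 0.29 (adjusted p = 0.025), the Het call being lost without P0 Wt replicate 3 or P0 Het replicate 5, 6 or 8 (1.19 to 1.322), without P0 Wt replicates 1 and 4 together (1.229) and with no filter (adjusted p = 0.0626). Each of the 8 genes was called as higher in Hom against Wt, which follows from the way they were found. Over all 17 arrays the correlation was 0.948 for Sorl1, 0.943 for Mal2 and 0.941 for Slitrk1, 0.833 for Chn2, 0.83 for Tcerg1l and 0.793 for Tmtc1, and lowest for Chst15 (0.61) and Gpc1 (0.488). Gpc1 was lower at P18 (-2.11 ± 0.21 in Het and -1.95 ± 0.18 in Wt), and so was Chst15 (-1.71 ± 0.32 in Het and -1.27 ± 0.28 in Wt), while the Ret differences were above 0 in both.

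**Figure D5:**
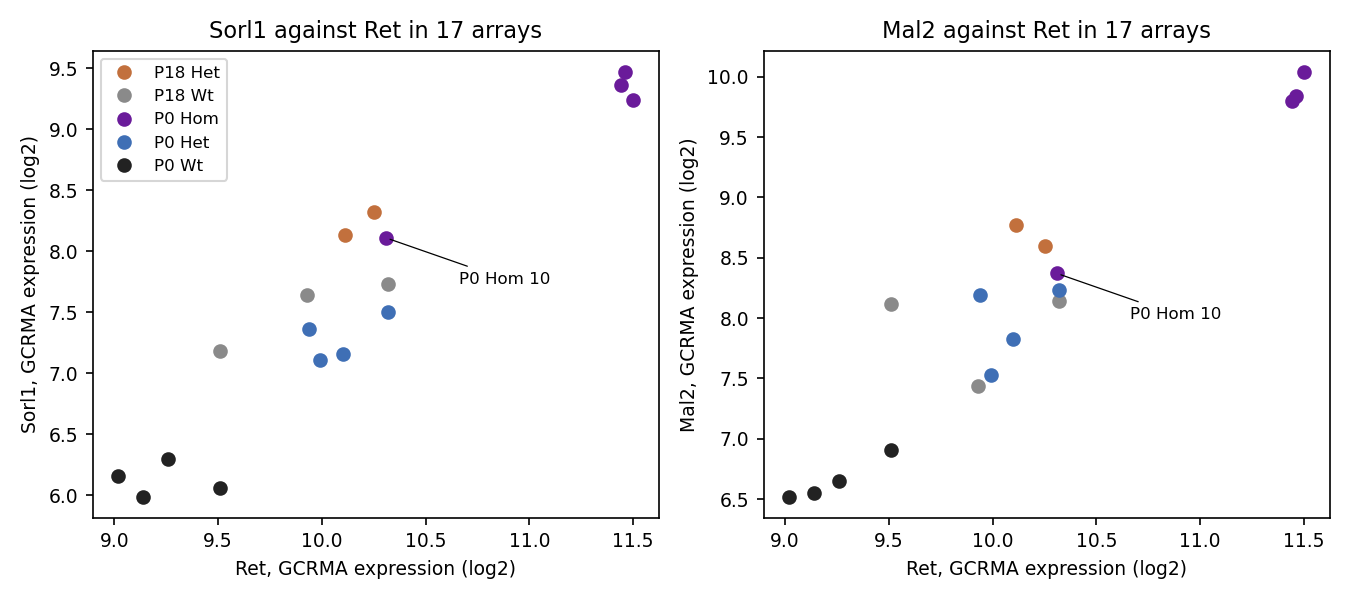
Sorl1 (left) and Mal2 (right) against Ret, as deposited log2 values, 1 point per array and coloured by group. P0 Hom replicate 10 (Ret 10.31, Sorl1 8.11, Mal2 8.37) lies apart from the other 3 Hom arrays. By Sorl1 it lies near the P18 Het arrays (8.13 and 8.32) and above all P0 Het arrays. By Mal2 it lies near the P0 Het and P18 arrays.

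For Gfra3 the likeness was weaker. The 3 genes with the highest correlation over the P0 arrays were Ganab, a subunit of a glucosidase of the endoplasmic reticulum (r = 0.895), the fatty acid desaturase gene Fads1 (0.856) and Mfsd10 (0.852). Over all 17 arrays these were 0.921, 0.496 and 0.651, so that of the 3 only that of Ganab was not lower with the P18 arrays added. Ganab was lower at P18, with a difference of -0.44 ± 0.12 in Het (adjusted p = 0.0084) and of -0.43 ± 0.11 in Wt (adjusted p = 0.0033), and its Het call was lost without P18 Het replicate 4 or 5 (-0.441 to -0.432). Ret and Gfra3 correlated with r = 0.551 over the 12 P0 arrays, with 0.275 after the genotype means were taken off and with 0.219 over all 17 arrays.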

How the data were processed

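RNA of ganglia was hybridized to Affymetrix mouse expression arrays, 1 per sample. The deposited values are log2 expression values that the authors made by GCRMA with a Brainarray annotation (versions and whether all arrays were normalized together are not given in the sources used here). Groups came from the sample labels. Of 17306 probe sets, 16464 had a symbol in the platform table and 842 had none. Scanner files and detection calls were not used here, and the number of arrays limits the precision.

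Probe sets with a log2 value over 4 in at least 2 of 17 arrays were kept (9973). A mean per group was fitted over all 17 arrays with limma 3.58.1 in R 4.3.3, with a trended and robust variance prior, 2-sided tests and Benjamini-Hochberg adjustment over all kept probe sets. A call is an adjusted p under 0.05. Intervals are 95%. The fit was tested on simulated data. P-values in the text are from this fit unless another test is named, and adjusted p always refers to all genes tested.

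Named genes were the 8 members, Alk, up to 4 rises and 4 falls per list with the lowest adjusted p, and the genes most correlated with Ret (8) or Gfra3 (3) over the 12 P0 arrays. The members, the lists and the arrays left out together were chosen with earlier results of these data known. Other filters, variance priors, normalizations, arrays in the fit, the methods' t-test, a replicate block and leaving out arrays were tried as alternatives.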

Additional observations from a re-analysis of the deposited data

Results flagged for a closer look

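The 8 members and Alk were examined in the 3 groups of 4 arrays for an array far from the rest, which made 27 groups, and 2 had one; chance alone sets apart a small share of such groups. Ret in P0 Hom replicate 10 was 10.31, while the nearest other Hom array had 11.44, a gap of 0.952 of the group's range against a limit of 0.829. Gfra3 in P0 Hom replicate 9 was 9.16, while the nearest other Hom array had 8.42, a gap of 0.852 of the range. Without Hom replicate 10 the Ret difference between Hom and Wt was 2.232, and without Hom replicate 9 the Gfra3 difference between Hom and Wt was 0.225.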

How the results depend on the processing

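For Ret at P0, the differences ran over single arrays left out from 1.836 to 2.232 for Hom against Wt, from 0.983 to 1.379 for Hom against Het, from 0.776 to 0.946 for Het against Wt and from -0.263 to -0.065 for Het against the midpoint. Het against Wt passed with median centring (0.897) and on the compared arrays alone (0.853). With the methods' t-test and adjustment over all genes, Hom against Wt (1.943) and Hom against Het (1.09) no longer passed. For Wt at P18 against Wt at P0, the Ret difference ran from 0.484 to 0.890 over single arrays and did not pass with quantile normalization (0.584), the methods' t-test (0.683), without P0 Wt replicates 1 and 4 (0.650), or with the arrays P0 Wt replicate 3 and P0 Hom replicate 12 omitted (0.612). Over single arrays Ret also ran from 0.054 to 0.460 for Het against Wt at P18, from 0.018 to 0.169 for Het at P18 against Het at P0, and from -0.798 to -0.393 for the change in the Het effect. The cause of these changes was not tested.

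Gfra3 over single arrays ran from 0.225 to 0.592 for Hom against Wt, from -0.054 to 0.236 for Hom against Het, from 0.147 to 0.448 for Het against Wt, from 0.001 to 0.166 for Het against the midpoint, from -0.537 to -0.239 at P18, from -2.233 to -2.124 with age in Het, from -1.699 to -1.374 with age in Wt, and from -0.816 to -0.491 for the change in the Het effect.

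The counts of genes called were 310 for Het against Wt at P0 (159 to 385 over single arrays, 60 by the methods' t-test, 693 without P0 Wt replicates 1 and 4), 848 for Hom against Wt (653 to 1237, 347 on the compared arrays alone, 142 by the t-test), and 737 for Hom against Het (352 to 970, 474 with no filter, 224 by the t-test, 1456 with the arrays P0 Wt replicate 3 and P0 Hom replicate 12 omitted). They were 188 for Het against the midpoint (26 to 416, 84 with no filter, 26 on the compared arrays, 541 without P0 Wt replicates 1 and 4, 563 with the arrays P0 Wt replicate 3 and P0 Hom replicate 12 omitted), 26 for Het against Wt at P18 (5 to 29, 56 with no filter, 17 with the stricter filter, 1 by the t-test), and 14 for the change in the Het effect (2 to 28, 31 with no filter, 6 with the stricter filter, 23 with the plain variance prior, 27 on the compared arrays, 56 without P0 Wt replicates 1 and 4, 67 with the arrays P0 Wt replicate 3 and P0 Hom replicate 12 omitted). Among the 3 genotypes 1072 genes differed (787 to 1505, 697 on the compared arrays, 1718 with the arrays P0 Wt replicate 3 and P0 Hom replicate 12 omitted). With age they were 4769 in Het (3498 to 4576) and 5480 in Wt (4764 to 5407). Each P0 Het array left out cut the count for Het against Wt at P0 to between 159 and 184, and leaving out P0 Hom replicate 9 gave 352 for Hom against Het. Leaving out P18 Wt replicate 1 gave 9, and either P18 Het array 5, for Het against Wt at P18.

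Among the groups compared, Wt at P18 and Wt at P0 share the replicate numbers 1 to 3, and Het at P18 and Het at P0 share only number 5, so a block could be fitted for Wt alone. Deviations of same-numbered arrays correlated at -0.008, 0.074 and -0.122, so no pairing by number was seen, but so few arrays cannot exclude one. With the replicate block, 4123 genes were called, against 4916 on the same 6 arrays without it, and the Ret difference was 0.652 (adjusted p = 0.0157) and the Gfra3 difference -1.639 (adjusted p = 0.0108). Of 121 differences of named genes, 59 kept their call under every alternative run for them, and 0 of 1906 pairs of difference and alternative reversed. The calls of named genes were lost most often with the methods' t-test (50), on the compared arrays alone (21) and with no filter (14), followed by median centring (8), the omission of P0 Wt replicates 1 and 4 (7), the plain variance prior (6), that of P0 Wt replicate 3 with P0 Hom replicate 12 (5), quantile normalization (4) and the block (4). The small groups limit what could be told apart, above all at P18.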
